A study of Mus musculus with 7 samples.

Results

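Transcripts of the proteasome were followed in 2 kinds of mouse microglia. The genes were every row of the deposited count table whose symbol begins with Psm, a letter from a to g and a digit, without Psmb8 and Psmb9 and without names marked as pseudogenes. This gave 48 genes of 14594, of which 47 passed the filter on low counts. The study sorted cortical microglia of about 12-week-old, untreated C57BL/6 mice, and all animals carried the same alleles, namely GFP in 1 copy of Cx3cr1 (Cx3Cr1GFP/+), Cre behind 1 copy of Hoxb8 (Hoxb8IRES-Cre/+) and a Cre-dependent reporter (ROSA26CAG-LSL-tdTomato/+). Green cells without tdTomato are named non-Hoxb8 here (n = 4 libraries), and cells with both colours Hoxb8 microglia (n = 3 libraries). Cells came from cortex freed of meninges, by trypsin, Cd11b beads and sorting. The red label marks any cell with a Hoxb8-expressing ancestor and so records descent, not present Hoxb8 expression. The labels name 4 animals for the 7 libraries without saying which libraries share one, so that p-values measure the spread between these libraries.

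The proteasome is the protease that degrades ubiquitin-tagged proteins in the cytosol and nucleus. Its 20S core is a barrel of alpha subunits (Psma genes) that gate the pore and beta subunits (Psmb genes), some of which carry the cutting sites. The 19S cap holds a ring of ATPases (Psmc genes) that unfold substrates and non-ATPase subunits (Psmd genes) that bind and remove ubiquitin. Psme genes encode other activators, Psmf1 an inhibitor, and Psmg genes, Psmd5, Psmd9 and Psmd10 chaperones of assembly. In immune cells, interferon-inducible beta subunits replace the constitutive ones and form the immunoproteasome, which shapes the peptides shown on MHC class I. One gene that the symbol rule takes in, Psmc3ip, encodes a partner of Psmc3 known for meiotic recombination and is no part of the complex.

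The libraries held between 5922972 and 7753577 counts, of which the 48 genes took between 9312 and 13928. Markers of microglia set for this comparison summed to between 35212 and 46673 CPM (read counts scaled to library size with TMM factors) in non-Hoxb8 libraries and between 39925 and 45354 CPM in Hoxb8 libraries, with all 10 detected. Markers of 2 other macrophage-lineage types stood higher in Hoxb8 libraries. The border-associated macrophage list summed to between 33.5 and 199.6 CPM in non-Hoxb8 and between 198.3 and 834 CPM in Hoxb8 libraries (8 of 8 genes with the higher mean there), and the monocyte list to between 124 and 202 against between 301 and 673 CPM (7 of 8). Of defining markers, Clec12a, Ly6c2, Itgal, Plac8, Spn and Treml4 were at 0 in at least 1 library. In such bulk libraries, a change in the mix of cells and a change in RNA per cell cannot be told apart. Astrocyte markers leaned the other way, at 389 to 1073 CPM in non-Hoxb8 and 277 to 621 CPM in Hoxb8 libraries (1 of 6 genes with the higher mean in Hoxb8), as did oligodendrocyte markers, at 114 to 296 against 109 to 245 CPM (0 of 3). Neuron markers reached at most 79.0 CPM and endothelial markers 52.1 CPM. Lymphocyte markers were not among the rows, and neutrophil markers reached at most 3.10 CPM. The part of these other cell types in the values below was not tested.

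Together the 48 genes made up a nearly constant share of the transcripts. Their summed level was 1690, 1774, 1608 and 1599 CPM in non-Hoxb8 replicates 1 to 4 and 1667, 1705 and 1838 CPM in Hoxb8 replicates 1 to 3. The groups overlapped, with means of 1668 ± 81.7 CPM (SD, n = 4) and 1737 ± 89.7 CPM (SD, n = 3), a ratio of 1.04. The largest part came from 19S non-ATPase genes, at 459 ± 40.9 against 494 ± 21.04 CPM, and from activators, at 396 ± 23.1 against 392 ± 8.24 CPM. The sums of 20S alpha genes were 238 ± 28.6 against 263 ± 33.4 CPM, of 20S beta genes 205 ± 25.2 against 200.03 ± 10.01 CPM and of 19S ATPases 258 ± 36.4 against 265 ± 21.9 CPM. Assembly chaperones together reached 83.0 ± 8.88 against 89.2 ± 4.27 CPM. The difference between group means was smaller than the larger of the 2 SDs in each of these classes.

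**Figure D1:**
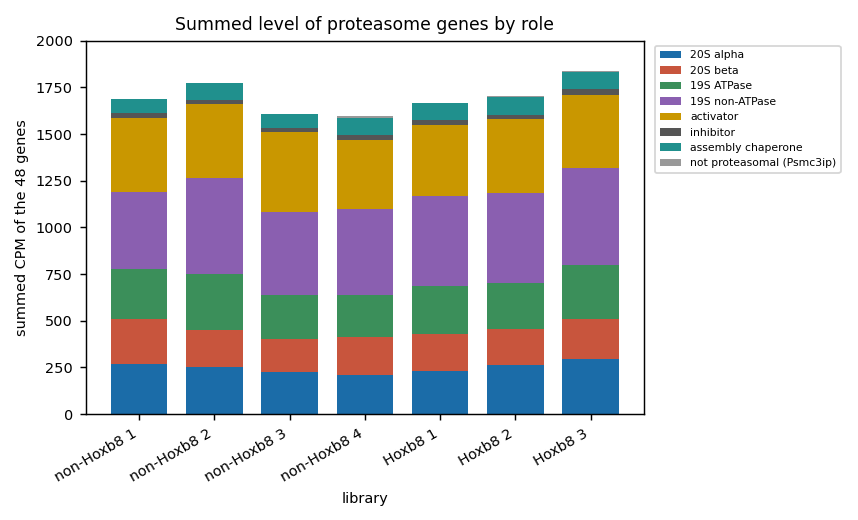
Summed CPM of the 48 genes in each library, stacked by role in the complex (linear axis from 0, 1 bar per library, no error bars). Bars lie between 1599 and 1838 CPM, and non-Hoxb8 and Hoxb8 libraries overlap.

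Levels were compared between genes per kb of annotated exon (CPM per kb, mean ± SD over 7 libraries), since long transcripts collect more reads. The length joins the exons of all annotated transcripts of a gene, so it can exceed that of the transcripts present. A level per kb can then read too low, and the part of this in the order of genes was not tested. The 6 ATPases of the cap lay close together, from 12.8 ± 2.48 CPM per kb for Psmc6 to 25.4 ± 8.44 CPM per kb for Psmc5, a 1.99-fold span. On this scale the 20S alpha genes spread much further. Psma6 stood highest at 44.5 ± 10.1 CPM per kb, while Psma3 reached 1.93 ± 0.875 CPM per kb, although each contributes a subunit to every alpha ring. The joined exon lengths were 1234 bases for Psma6 and 3894 bases for Psma3, which widens the span. Without length, the means over 7 libraries were 54.9 CPM for Psma6 and 7.52 CPM for Psma3. Psma8, the alpha subunit of the testis-type proteasome, was lowest at 0.905 ± 0.641 CPM per kb. Among beta genes, Psmb2 stood highest at 37.8 ± 12.2 CPM per kb and Psmb3 lowest of those tested at 3.34 ± 0.752 CPM per kb.

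The non-ATPase subunits of the cap ranged from 3.64 ± 1.55 CPM per kb for Psmd13 to 23.8 ± 5.66 CPM per kb for Psmd12, both structural subunits of its lid. Psmd14, the deubiquitinase that strips ubiquitin chains from substrates, stood at 15.9 ± 3.34 CPM per kb. Of activators, Psme2b was highest at 58.8 ± 10.003 CPM per kb and Psme2 lowest at 7.17 ± 1.87 CPM per kb. Psme1, which forms the interferon-inducible PA28 ring with Psme2, reached 37.8 ± 6.99 CPM per kb. The inhibitor gene Psmf1 stood at 4.02 ± 0.594 CPM per kb. Assembly chaperones ranged from 1.197 ± 0.525 CPM per kb for Psmg3 to 9.66 ± 2.81 CPM per kb for Psmg4, and their median of 5.82 was below the medians of alpha genes (13.6), ATPases (16.4) and activators (30.0).

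**Figure D2:**
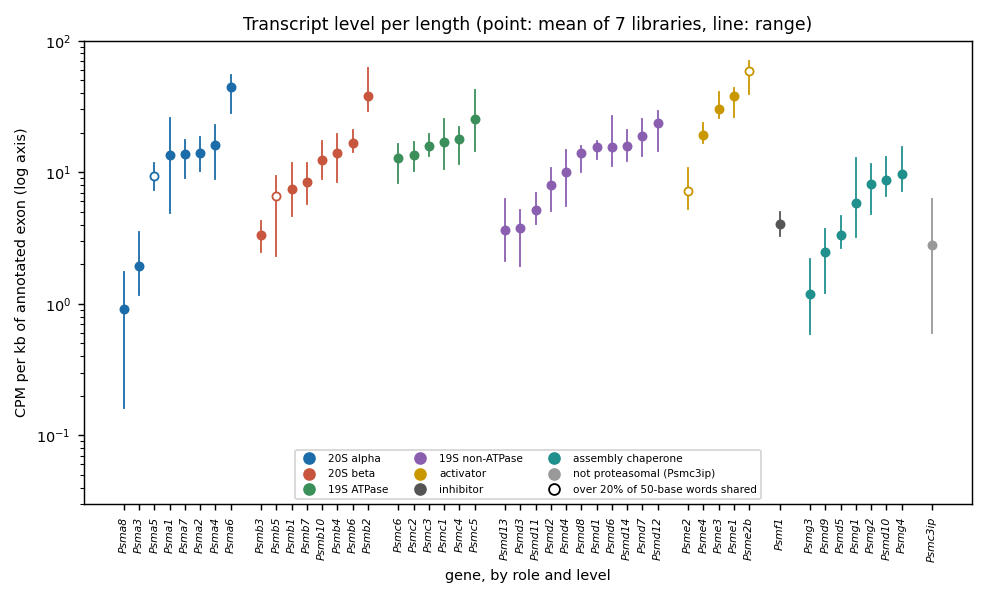
Level of each gene in CPM per kb of annotated exon (log axis), with points for the mean and lines for the range of 7 libraries, grouped by role. Open points mark genes with over 20% of their 50-base words in another gene that does not overlap their exons. Psmb11 is left out because it was 0 in 6 libraries, and the ATPases span only 1.99-fold.

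Some of these levels rest on sequence that another gene shares. Reads were 50 bases long, and the share of a gene's 50-base words also found in another annotated gene was computed. Genes whose exons overlap those of the gene at hand were left out of this share, and 13 of the 48 have such an overlap. The share was above 20% for 4 of the 48 genes and 0 for 25. The 4 were Psme2b (69.3%), Psma5 (49.1%), Psmb5 (47.4%) and Psme2 (28.3%). For Psma3 the share was 15.4%, all of it with the processed pseudogene Gm13835, and for Psmb5 nearly all was with Gm3375. The sources used here do not state how reads with several matches were counted, and the part of shared sequence in the levels of Psma3 and Psmb5 was not tested.

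Psme2 and Psme2b are the clearest case. Psme2 on chromosome 14 has 11 exons and Psme2b on chromosome 11 has 1, and their coding sequences of 717 bases are 99.3% identical, with an unbroken identical run of 311 bases. These values are from GENCODE M21 on GRCm38. Of the counts given to either gene, Psme2b held between 71.1% and 83.9% per library. The counts of both are uncertain for this reason. Their sum stood at 60.6 CPM in non-Hoxb8 and 63.6 CPM in Hoxb8 libraries.

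The study set the 2 lineages against each other in adult cortex. None of the 47 tested proteasome genes passed the threshold in edgeR (quasi-likelihood test, Benjamini-Hochberg over 11874 genes, 0 higher and 0 lower, lowest adjusted p = 0.9996), where 0.0337% of all genes were called higher and 0% lower. DESeq2 and limma-voom also called 0 of the 47, where DESeq2 called 0.168% of all genes higher and 0.0337% lower. Limma-voom called 0 of all 11874 genes in each direction. With no adjustment and a threshold of 0.05, edgeR had 2 of the 47 higher (4.26%, against 1.95% of all genes) and 0 lower (against 1.57% of all genes). DESeq2 had 3 in all at that level (6.38%, against 4.3% of all genes), and limma-voom 2 (4.26%, against 3.19%). Log2 fold changes lay from -1.19 to 1.25 with a median of 0.12 (26 of 47 above 0), beside a median of -0.00034 over all genes tested, of which 49.97% were above 0. The median of the 47 was 0.00072 without Hoxb8 replicate 3, 0.015 without non-Hoxb8 replicate 4 and -0.045 without libraries 21, 22 and 25.

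The intervals left room for moderate changes in single genes. The 95% interval of the log2 fold change lay wholly within -1 and 1 for 27 of 47 genes (57.4%), against 43.8% of all genes tested. The median half-width was 0.69 for the 47 and 0.82 over all genes. Psmd1, a scaffold subunit at the base of the 19S cap, was bounded most closely to 0, with an interval from -0.44 to 0.40. Psme4, the activator PA200 and the most abundant member in CPM, had an interval from -0.50 to 0.26. At the other end, Psma8 had an interval from -3.36 to 0.98 and Psmg3 from -1.57 to 1.86.

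**Figure D3:**
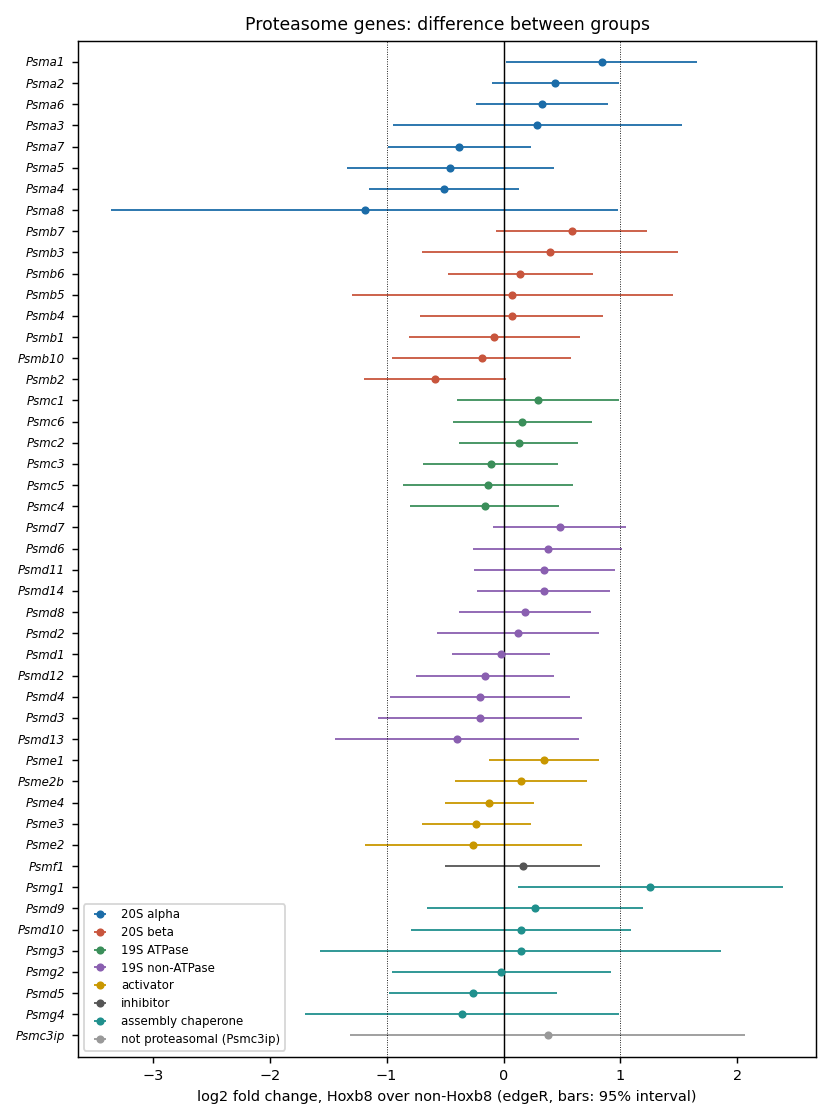
Log2 fold change of Hoxb8 over non-Hoxb8 libraries for the 47 tested genes (points, edgeR) with 95% intervals (bars), coloured by role, with dotted lines at -1 and 1. Intervals reach or cross 0 for all but Psmg1 and Psma1, and 27 lie within the dotted lines.

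Among 20S alpha genes, 4 of 8 were above 0 and the median log2 fold change was -0.045. Psma1 stood at 25.1, 49.2, 30.9 and 14.4 CPM in non-Hoxb8 replicates 1 to 4 and at 51.3, 32.9 and 76.8 CPM in Hoxb8 replicates 1 to 3. It was highest in Hoxb8 replicate 3 and lowest in non-Hoxb8 replicate 4, and the groups overlapped (log2 fold change 0.84 ± 0.38 SE, edgeR unadjusted p = 0.044, edgeR adjusted p = 0.9996). The log2 fold change of Psma1 was 0.49 without Hoxb8 replicate 3, 0.18 without libraries 21, 22 and 25, and 1.44 without libraries 13 and 14. Psma2 stood at 44.8 ± 7.29 against 60.9 ± 10.1 CPM (log2 fold change 0.44, 95% interval from -0.10 to 0.98). Psma4 went the other way, at 43.6 ± 7.63 against 30.6 ± 9.17 CPM (log2 fold change -0.51, 95% interval from -1.15 to 0.13, and -0.31 without Hoxb8 replicate 1). Psma5 was between 12.1 and 15.6 CPM in non-Hoxb8 and between 9.62 and 11.1 CPM in Hoxb8 libraries, without overlap (log2 fold change -0.45, 95% interval from -1.34 to 0.43).

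Among 20S beta genes, 5 of 8 tested were above 0 with a median of 0.072. Psmb7, whose subunit makes the trypsin-like cuts of the constitutive core, stood at 21.7, 32.1, 22.3 and 19.8 CPM in non-Hoxb8 replicates 1 to 4 and at 40.1, 33.3 and 34.4 CPM in Hoxb8 replicates 1 to 3. Every Hoxb8 library lay above every non-Hoxb8 library, by a narrow margin at non-Hoxb8 replicate 2 (log2 fold change 0.58 ± 0.31 SE, edgeR unadjusted p = 0.075, edgeR adjusted p = 0.9996). Psmb7 shares 405 exon bases with Nek6, and without strand in the counts their reads there cannot be told apart. Psmb2, a structural beta subunit, stood at 74.4, 36.9, 47.3 and 53.9 CPM in non-Hoxb8 and at 35.4, 35.6 and 35.04 CPM in Hoxb8 libraries. The Hoxb8 values were nearly equal and all lay below the lowest non-Hoxb8 value (log2 fold change -0.59 ± 0.29 SE, edgeR unadjusted p = 0.058, edgeR adjusted p = 0.9996). Without non-Hoxb8 replicate 1, the highest library, the log2 fold change of Psmb2 was -0.38.

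Psmb11, the beta subunit known from thymic epithelium, did not pass the filter on low counts. It had 30 counts in non-Hoxb8 replicate 4 and 0 in the other 6 libraries. In the Hoxb8 libraries together, a count of 0 allows up to 0.134 CPM (3 counts over the group, counting error only). It lies 3410 bases from Psmb5 on chromosome 14, on the opposite strand.

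In the 19S cap, the ATPases were split evenly, with 3 of 6 above 0, a median of 0.011 and a range from -0.16 for Psmc4 to 0.29 for Psmc1. Psmc2 stood at 65.2 ± 14.7 against 71.4 ± 4.16 CPM. Psmc5 was even in Hoxb8 libraries (33.7 ± 0.803 CPM) and spread from 20.3 to 58.8 CPM in non-Hoxb8 libraries. Of the 11 non-ATPase genes, 6 were above 0, with a median of 0.12. Psmd7, which pairs with the deubiquitinase Psmd14 in the lid, stood at 29.8, 41.3, 32.7 and 42.9 CPM in non-Hoxb8 and at 57.1, 43.9 and 52.6 CPM in Hoxb8 libraries. The groups did not overlap, but Hoxb8 replicate 2 was close to non-Hoxb8 replicate 4 (log2 fold change 0.48 ± 0.27 SE, edgeR unadjusted p = 0.092, edgeR adjusted p = 0.9996). Psmd14 itself stood at 40.2 ± 8.32 against 51.0 ± 7.86 CPM (log2 fold change 0.34, 95% interval from -0.23 to 0.91).

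Of the 5 activator genes, 2 were above 0. Psme1 stood at 74.9 ± 15.5 CPM in non-Hoxb8 and 95.1 ± 2.34 CPM in Hoxb8 libraries (log2 fold change 0.34, 95% interval from -0.13 to 0.82), and the groups overlapped at non-Hoxb8 replicate 2. Psme3, the nuclear PA28 subunit, stood at 94.5 ± 19.2 against 80.5 ± 6.14 CPM, and Psme4 at 166 ± 22.2 against 153 ± 10.7 CPM. Psmf1 had a log2 fold change of 0.16 with a 95% interval from -0.50 to 0.83.

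The largest positive difference was in an assembly chaperone. Psmg1, which with Psmg2 guides the formation of the alpha ring, stood at 4.81, 4.46, 4.33 and 6.01 CPM in non-Hoxb8 replicates 1 to 4 and at 6.95, 11.1 and 17.1 CPM in Hoxb8 replicates 1 to 3. Non-Hoxb8 libraries were close to each other and all below the Hoxb8 libraries, which differed among themselves (log2 fold change 1.25 ± 0.53 SE, edgeR unadjusted p = 0.032, edgeR adjusted p = 0.9996). Its counts were low, from 27 to 127 per library. Leaving out 1 library moved the log2 fold change of Psmg1 from 0.88 (Hoxb8 replicate 3) to 1.52 (Hoxb8 replicate 1). Without libraries 21, 22 and 25, Psmg1 had a log2 fold change of 0.95. Its partner Psmg2 did not share the pattern, at 14.1 ± 4.26 against 13.95 ± 5.46 CPM (log2 fold change -0.017, 95% interval from -0.95 to 0.92). The other chaperones lay between -0.36 for Psmg4 and 0.27 for Psmd9, and Psmd9 shares 1849 exon bases with Gm26745.

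In all, 3 of the 47 genes were higher without overlap between groups (Psmg1, Psmb7 and Psmd7, 6.38%) and 2 lower (Psmb2 and Psma5, 4.26%), against 2.48% and 2.08% of all genes tested. The 5 encode parts of the core, the lid and the assembly machinery, and no role class held more than 2 of them. With adjacent library numbers taken as pairs, edgeR called 0 of the 47, where it called 0.362% of all genes higher and 0% lower. Without adjustment, 0 of the 47 were under 0.05 in that fit, against 5.02% of all genes.

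The inducible subunits were compared with the constitutive subunits they replace, with Psmb8 and Psmb9 taken from outside the 48 genes. Psmb8, which replaces Psmb5, stood at 39.6 ± 5.69 CPM in non-Hoxb8 and 38.7 ± 5.44 CPM in Hoxb8 libraries, and Psmb5 at 5.82 ± 2.74 against 6.14 ± 1.92 CPM. Per length, Psmb8 reached 11.6 ± 1.51 CPM per kb and Psmb5 6.63 ± 2.49 CPM per kb, with the caution on shared sequence given above for Psmb5. Psmb9, which replaces Psmb6, stood at 38.1 ± 14.7 against 46.8 ± 2.76 CPM, and Psmb6 at 29.8 ± 2.57 against 33.0 ± 6.18 CPM. Per kb of annotated exon the order was reversed, at 11.4 ± 3.14 CPM per kb for Psmb9 and 16.6 ± 2.32 CPM per kb for Psmb6. The joined exon lengths were 3660 bases for Psmb9 and 1872 for Psmb6, and the reversal rests on them. For Psmb8 and Psmb5 they were 3381 and 899 bases. Transcripts of all 3 inducible subunits were detected in each of the 7 libraries. Psmb9 shares 212 exon bases with Tap1, and Psmb8 shares 498 with Gm20496.

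Psmb10, which replaces Psmb7, stood at 29.7, 24.7, 19.1 and 15.1 CPM in non-Hoxb8 replicates 1 to 4 and at 22.8, 17.8 and 17.8 CPM in Hoxb8 replicates 1 to 3 (log2 fold change -0.19, 95% interval from -0.95 to 0.58). For Psmb10 the log2 fold change was -0.013 without non-Hoxb8 replicate 1, -0.32 without Hoxb8 replicate 1 and -0.33 without non-Hoxb8 replicate 4. The log2 ratio of Psmb10 over Psmb7 was 0.44, -0.37, -0.22 and -0.38 in non-Hoxb8 and -0.80, -0.89 and -0.93 in Hoxb8 libraries. Every Hoxb8 library lay below every non-Hoxb8 library, with a difference between means of -0.74 (exact two-sided permutation test over 35 splits, p = 0.0571, the smallest that 3 libraries against 4 allow, and 0.171 adjusted over the 3 ratios). The log2 fold change of Psmb7 was 0.58, beside -0.19 for Psmb10. Psmb7 shares 405 exon bases with Nek6, and the part of this overlap in the ratio was not tested. Without non-Hoxb8 replicate 1, the difference between means for Psmb10 over Psmb7 was -0.55. The ratio of Psmb9 over Psmb6 differed by 0.23 (exact permutation p = 0.629, adjusted p = 0.943), and leaving out 1 library moved this from 0.064 (non-Hoxb8 replicate 1) to 0.48 (non-Hoxb8 replicate 2). That of Psmb8 over Psmb5 differed by -0.21 (exact permutation p = 0.971, adjusted p = 0.971). The latter turned to 0.27 without non-Hoxb8 replicate 4, in which Psmb5 had 12 counts.

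**Figure D4:**
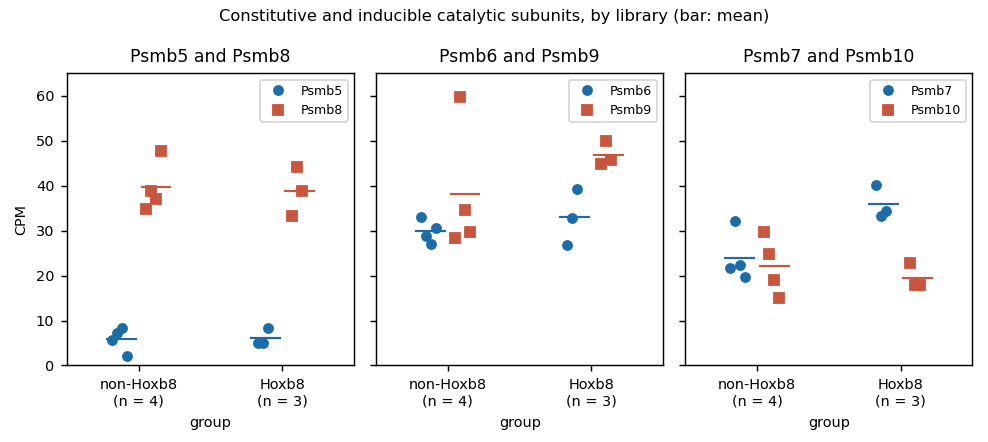
CPM of the constitutive catalytic subunits Psmb5, Psmb6 and Psmb7 (circles) and the inducible subunits Psmb8, Psmb9 and Psmb10 (squares) in each library, by group, with bars for group means and a linear axis from 0. Psmb7 lies between 33.3 and 40.1 CPM in Hoxb8 libraries and at or below 32.1 CPM in non-Hoxb8 libraries, while Psmb10 overlaps between groups.

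The genes did not rise and fall as a block across the libraries. The median within-group SD of log2(CPM + 0.5) was 0.34 for the 47 genes and 0.47 over all genes tested, where the median level was 32.8 CPM for the 47 and 24.0 CPM over all genes. Psmb6 was the steadiest in non-Hoxb8 libraries, with an SD of 0.12 on that log2 scale. Psmc3ip spread the most among the tested genes, from 1.10 CPM in non-Hoxb8 replicate 1 to 11.3 CPM in non-Hoxb8 replicate 4, with 2.55 and 3.21 CPM in the other two and from 3.21 to 7.95 CPM in Hoxb8 libraries. Over the 1081 pairs of the 47 genes, the median correlation across the 7 libraries was 0.038, and 53.2% of pairs were above 0, beside a median of 0 and 50.0% over all pairs of genes tested. These correlations share the 7 libraries and their normalisation and are given as a description.

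The proteasome genes did not all follow the adjacent library numbers. Over the 47 genes, the correlation of group-centred values was 0.17, -0.11 and -0.053 for library numbers 5 and 6, 13 and 14, and 21 and 22, beside 0.18, 0.28 and 0.19 over all genes. For the other combinations of a non-Hoxb8 with a Hoxb8 library, values over the 47 genes lay from -0.16 to 0.14. Over all genes, those combinations lay from -0.21 to 0.063. Hoxb8 replicate 3 held the highest value of 12 of the 47 genes and non-Hoxb8 replicate 4 the lowest of 14. These counts have no share over all genes beside them, so they cannot be read as particular to the proteasome genes. Library numbers 13 and 14 (replicate 2 of each group) had high Il1b, an inflammatory cytokine gene, at 408 and 943 CPM, where the others reached at most 26.6 CPM. Their summed proteasome levels of 1774 and 1705 CPM lay within the range of the other libraries.

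**Figure D5:**
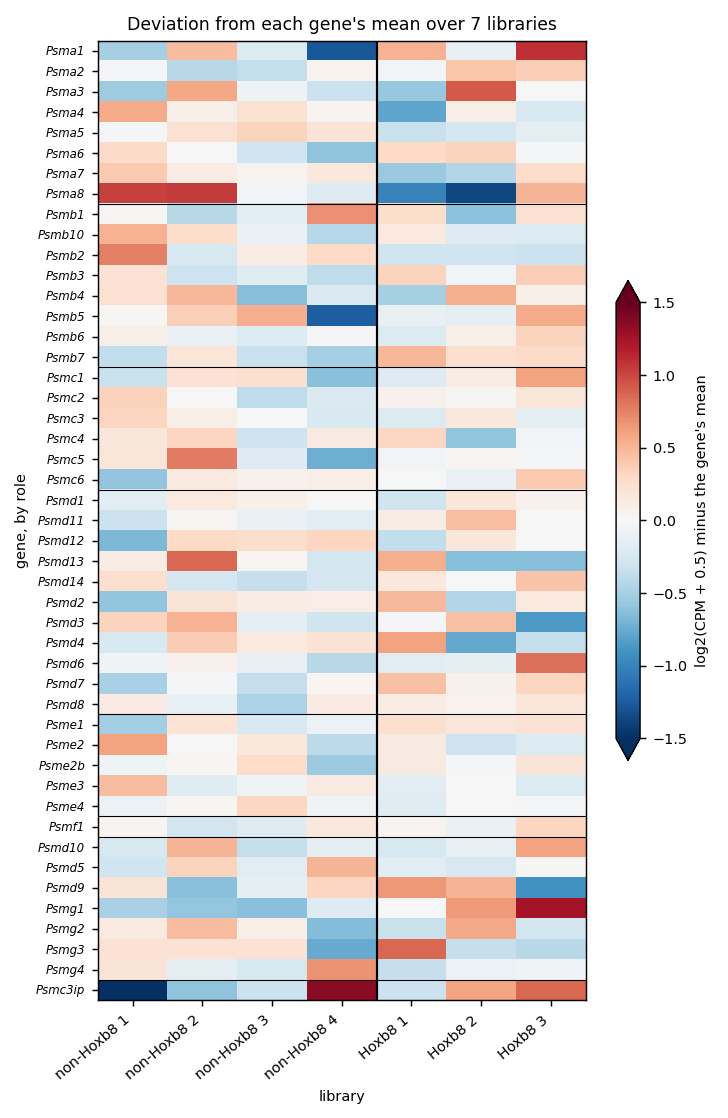
Deviation of log2(CPM + 0.5) from each gene's mean over 7 libraries, for the 47 tested genes in rows by role and the libraries in columns (red above, blue below, colour scale symmetric about 0). Red and blue are mixed within roles and libraries, and the vertical line divides 4 non-Hoxb8 from 3 Hoxb8 libraries.

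Proteasome genes lay on 16 chromosomes, with 10 on chromosome 11. Psme1 and Psme2 are 5911 bases apart on chromosome 14 in opposite directions, and in GENCODE M21 on GRCm38 Psmg1 spans chromosome 16 from 95979933 to 95990960, Psma1 chromosome 7 from 114264606 to 114276118, Psmb7 chromosome 2 from 38588036 to 38644087, Psmb2 chromosome 4 from 126677630 to 126709714 and Psmd7 chromosome 8 from 107580381 to 107588464. All 48 are annotated as protein-coding, and 13 share exon bases with another gene.

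Upstream sequence was available for 40 of the 48 genes (43 windows, RefSeq on GRCm38.p6) and was searched on both strands over the 250 bases before the start. The letters CCGGAAG, the core bound by ETS factors of many housekeeping promoters, were in 14 of 43 windows (32.6%), against 13.7% of windows of tested genes and 6.91% of all windows. CCAAT, the box bound by NF-Y, was in 32.6% against 35.1% and 33.8%. TGACNNNGC, the antioxidant response core bound by Nfe2l1 and Nfe2l2, was in 11.6% against 11.9% and 10.2%. The core of interferon-stimulated response elements, searched as 2 GAAA boxes 2 bases apart, was in 3 windows (6.98%), against 2.68% and 2.98%. The motifs were chosen with the members' matches known, the shares carry no test, and a match is not a binding site.

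The upstream bases of 4 genes show these letters in capitals, read 5′ to 3′ on the strand of the gene. Psmg1 and Psma1 are the 2 genes with an unadjusted p below 0.05, and Psmb5 and Psmb6 are catalytic genes with the antioxidant core, while Psmb7 was not searched (Psmg1 at chr16:95990961-95991210 on the minus strand, Psma1 at chr7:114276117-114276366 on the minus strand, Psmb5 at chr14:54617996-54618245 on the minus strand and Psmb6 at chr11:70525107-70525356 on the plus strand).
Psmg1: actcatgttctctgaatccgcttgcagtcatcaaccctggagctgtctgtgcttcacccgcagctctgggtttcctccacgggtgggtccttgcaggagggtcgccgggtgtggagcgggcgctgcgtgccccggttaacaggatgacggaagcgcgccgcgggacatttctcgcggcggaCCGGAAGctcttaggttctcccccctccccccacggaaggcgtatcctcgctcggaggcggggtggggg
Psma1: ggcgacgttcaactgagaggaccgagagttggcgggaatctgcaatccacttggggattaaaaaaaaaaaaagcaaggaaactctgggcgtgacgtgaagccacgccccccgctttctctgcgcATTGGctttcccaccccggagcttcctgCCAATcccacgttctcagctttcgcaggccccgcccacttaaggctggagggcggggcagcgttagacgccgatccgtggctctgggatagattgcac
Psmb5: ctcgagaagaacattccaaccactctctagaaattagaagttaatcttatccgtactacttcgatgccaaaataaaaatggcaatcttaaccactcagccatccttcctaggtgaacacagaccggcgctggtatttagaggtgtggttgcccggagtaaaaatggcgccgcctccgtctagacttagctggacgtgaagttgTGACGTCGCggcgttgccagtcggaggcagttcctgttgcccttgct
Psmb6: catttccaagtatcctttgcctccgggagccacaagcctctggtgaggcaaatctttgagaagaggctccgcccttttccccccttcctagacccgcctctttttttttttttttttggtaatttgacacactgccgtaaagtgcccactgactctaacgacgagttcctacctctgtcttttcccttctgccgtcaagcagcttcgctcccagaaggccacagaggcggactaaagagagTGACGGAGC
The Psmg1 window held CCGGAAG once, the Psma1 window held CCAAT 2 times in opposite directions, and Psmb5 and Psmb6 held the antioxidant core once each.

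Partners of the proteasome were followed as a list of 32 genes, which covers the maturation factor, ubiquitin receptors and deubiquitinases of the cap, ubiquitin genes, shuttle factors and the regulators Nfe2l1 and Nfe2l2. Of these, edgeR called 0 higher and 0 lower with adjustment over all genes, against 0.0337% and 0% of all genes. DESeq2 called 0 in each direction, against 0.168% and 0.0337%, and limma-voom 0, where it called 0 of all genes. At an unadjusted p below 0.05, all 3 tests had 0 partners, against 3.52% (edgeR), 4.3% (DESeq2) and 3.19% (limma-voom) of all genes. Log2 fold changes of the partners had a median of -0.00038 with 16 above and 16 below 0. Pomp, the factor that completes 20S assembly, stood at 80.0 ± 8.87 CPM in non-Hoxb8 and 105 ± 13.1 CPM in Hoxb8 libraries without overlap (log2 fold change 0.39, 95% interval from -0.046 to 0.83). In all, 2 of the 32 partners (Pomp and Ufd1l) were higher without overlap and 0 lower, against 2.48% and 2.08% of all genes tested. Nfe2l2, the regulator of antioxidant genes, stood at 706 ± 130 against 905 ± 235 CPM (0.36, 95% interval from -0.045 to 0.76). With adjacent library numbers as pairs, edgeR called 0 partners, against 0.362% of all genes higher and 0% lower. In that fit 3 of 32 had an unadjusted p below 0.05 (Nfe2l2, Zfand5 and Ube3c, against 5.02% of all genes). In that fit Nfe2l2 had a log2 fold change of 0.41 (95% interval from 0.13 to 0.69, edgeR unadjusted p = 0.0059, edgeR adjusted p = 0.479). The ubiquitin ligase gene Ube3a had a log2 fold change of -0.38 (95% interval from -0.84 to 0.074) and the polyubiquitin gene Ubb of -0.50 (95% interval from -1.12 to 0.12, with 48.1% of its 50-base words in other genes). Nfe2l1 stood at 94.9 ± 8.55 against 89.9 ± 11.9 CPM.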

How the data were processed

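The authors mapped 50-base single-end reads without strand with STAR 2.4.1c to GRCm38 with GENCODE release M5, per the labels' protocols. The programs featureCounts, Subread and DESeq2 are named too in the submitters' processing notes. What was deposited is a table of raw counts, 1 row a symbol. Of 14616 rows, 22 carried dates as names (a median of 0.133% of counts) and were left out, and 139 were 0 in all libraries. Libraries were grouped by the sorted cell type in the labels. The main test was edgeR 4.0.16 under R 4.3.3 (TMM, filterByExpr, robust quasi-likelihood, 11874 genes, Benjamini-Hochberg at 0.05), with DESeq2 1.42.0, limma-voom (limma 3.58.1), other normalisations and filters, and left-out libraries as alternatives. Standard errors were obtained by dividing the log2 fold change by the square root of F. The test was checked on simulated counts. Every pair of libraries differed beyond counting noise (lowest chi-square over its degrees of freedom, 17.4). Ratios used log2(CPM + 0.5) and exact permutation in scipy 1.17.1. Exon lengths, overlaps and shared words came from GENCODE M21 of the same assembly. Counts are PCR reads without molecular identifiers, so limits cover counting error only.

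The members, partner list, markers and tests were chosen with earlier results of these data known. Values were given for members past the test, the 8 of smallest p, the highest and lowest level per length in each role, the catalytic subunits, extremes of spread, members not tested or not proteasomal, Psmb8 and Psmb9, and the 4 partners of smallest p. The others named, such as Psma5, Psmd1, Psmd14, Psmg2 and Nfe2l1, were chosen after their values were seen. Libraries with adjacent numbers were taken as possible pairs because their deviations correlated above 0.1 over all genes (0.18, 0.28 and 0.19). The labels do not state this pairing.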

Additional observations from a re-analysis of the deposited data

Results flagged for a closer look

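In the 4 non-Hoxb8 libraries, 58 measures (each gene, the 3 ratios, the sums by role and the total) were searched on the log2(CPM + 0.5) scale for a single distant library, and 6 were found, where chance gives 2.9. Replicate 1 stood apart in 4 of them. Its level was 38.3 CPM for Psmd12 where its 3 companions had 73.6 to 76.8 (a gap of 0.939 of the range), 29.0 for Psmc6 against 45.7 to 48.4 (0.888), 20.6 for Psmd2 against 33.5 to 35.9 (0.874) and 52.6 for Psmd14 against 34.6 to 36.9 (0.847). For these genes the Hoxb8 libraries lay within the span of all non-Hoxb8 libraries or overlapped it. Replicate 4 stood apart for Psmg3 at 1.72 CPM against 3.82 to 3.85 (0.991), and for Psmb11 at 5.15 CPM against 0 in all others (a gap of 1, the whole range).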

How the results depend on the processing

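The counts of proteasome and partner genes called, 0 in each direction, stayed at 0 under every alternative run: other normalisations, filters and tests, the replicate block, each library left out, without libraries 13 and 14, and without libraries 21, 22 and 25. Over all genes, edgeR called 4 higher and 0 lower, DESeq2 20 and 4, the replicate block 43 and 0, and limma-voom 0 and 0 (238 and 141 at an unadjusted p under 0.05). Proteasome genes with an unadjusted p under 0.05 numbered from 0 to 3 of 47 when 1 library was left out, against 3.03% to 4.73% of all genes, and were not always Psmg1 and Psma1. The median log2 fold change of proteasome genes, 0.12, was 0.020 with the replicate block (adjacent library numbers as pairs), -0.045 without libraries 21, 22 and 25, and from 0.00072 (without Hoxb8 replicate 3) to 0.15 when 1 library was left out. The log2 ratio of summed levels, 0.058, became -0.042 without libraries 21, 22 and 25, so the sign of both rests on these libraries. The replicate block changed no adjusted call among proteasome and partner genes. For Psmb5 the log2 fold change of 0.075 became -0.23 with the block and -0.36 without libraries 21, 22 and 25, and lay from -0.21 to 0.30 when 1 library was left out (-0.20 without non-Hoxb8 replicate 4). For Psmb6 it became -0.054 without libraries 21, 22 and 25. The ratio of Psmb8 over Psmb5 lay from -0.44 to 0.27 when 1 library was left out (0.013 without Hoxb8 replicate 3) and was 0.38 without libraries 21, 22 and 25. The cause was not tested. The ratio of Psmb10 over Psmb7 kept its sign throughout, from -0.88 to -0.55. Low counts limit genes such as Psma8, Psmg3, Psmc3ip, Psmg4 and Psmb5.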
